A study of Drosophila melanogaster with 2 samples.

Results

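In embryos that carried CHES-1-like fused to GFP, 627 of the 4599 reproducible binding sites of the fusion protein lay deep in introns, far from any start of a protein-coding gene. A site, here called a peak, was counted as far intronic when its summit lay inside a protein-coding gene, in no exon of any gene, and more than 2000 bp from the nearest protein-coding transcription start site (TSS). These peaks made up 13.6% of the list. Of the rest, 2895 lay at promoters (within 500 bp of a TSS), 513 in introns closer to a TSS, 419 between genes and 145 in exons. The name "far from any TSS" holds for protein-coding genes only, since 18 of the 627 summits lay within 500 bp of the TSS of a non-coding gene and 43 within 2000 bp. The 3 members closest to the limit lay 2012, 2020 and 2023 bp from a TSS, with signals of 91.1, 230 and 87.2. The 3 nearest intronic peaks on the other side lay at 1998, 1997 and 1988 bp, with signals of 85.2, 322 and 189.

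Binding was measured by chromatin immunoprecipitation with an antibody against GFP, followed by sequencing. The material was whole embryos of Drosophila melanogaster, males and females together, at ages of 0 to 24 h. All embryos came from 1 transgenic line, CHES-1-like-GFP, which stably carries the gene with GFP at its C-terminal end. Sonication gave chromatin fragments between 200 and 800 bp. The 2 samples, biological replicates 2 and 3, form the only group, so no condition was compared with another and no test ran across samples. Whole embryos mix all tissues, so binding in few cells and weak binding in many cannot be told apart. The control that entered the lists upstream is not analysed here. The deposited lists give each peak a signal, the authors' own value on the scale of its list, but no read counts. The sequencing depth is therefore unknown, and intervals cover counting error over peaks or genes only.

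CHES-1-like belongs to the forkhead transcription factors, which bind DNA through a winged-helix domain. Its closest vertebrate relatives are the FOXN factors, for which a site with the letters GACGC has been described beside the common forkhead site. In the fly embryo CHES-1-like and its relative jumu are known for their part in the division and specification of heart progenitors. Introns of developmental genes often hold enhancers, stretches of DNA that bind several factors and act on a promoter some distance away.

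The summits of 8 strong members, ranked from 3 to 31 by signal, show 2 words that were more frequent at far intronic summits than in the DNA beside them. These 8 were picked because each holds a word, whereas 11 of the 20 strongest members hold either word and the 2 strongest hold neither. Each line gives the 201 bp around a summit on the plus strand of dm6, from the release 6 genome of RefSeq, with the words ACAGTG and ACTGAG in capitals on either strand (CACTGT and CTCAGT are their reverse complements). They lie in an intron of CHES-1-like at chrX:7700313-7700513, of Raf at chrX:2297627-2297827, of aop at chr2L:2163563-2163763, of fz at chr3L:14303957-14304157, of CG32264 at chr3L:3785114-3785314, of trx at chr3R:14283771-14283971, of ush at chr2L:485776-485976 and of Hr4 at chrX:1963824-1964024.
CHES-1-like: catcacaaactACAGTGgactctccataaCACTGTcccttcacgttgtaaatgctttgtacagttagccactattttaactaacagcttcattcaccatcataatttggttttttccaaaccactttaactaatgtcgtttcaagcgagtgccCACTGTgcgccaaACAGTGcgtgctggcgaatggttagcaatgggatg
Raf: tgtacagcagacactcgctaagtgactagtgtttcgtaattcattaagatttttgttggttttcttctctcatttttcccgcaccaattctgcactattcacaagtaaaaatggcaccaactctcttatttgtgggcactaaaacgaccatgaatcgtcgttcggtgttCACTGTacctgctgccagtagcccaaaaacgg
aop: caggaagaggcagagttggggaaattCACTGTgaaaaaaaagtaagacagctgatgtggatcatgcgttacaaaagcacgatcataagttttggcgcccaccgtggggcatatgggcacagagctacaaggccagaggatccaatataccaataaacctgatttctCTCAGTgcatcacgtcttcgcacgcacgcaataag
fz: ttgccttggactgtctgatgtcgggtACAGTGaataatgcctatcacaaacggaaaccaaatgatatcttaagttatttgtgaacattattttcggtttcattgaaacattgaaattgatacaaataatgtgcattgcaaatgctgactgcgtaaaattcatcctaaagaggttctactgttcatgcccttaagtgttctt
CG32264: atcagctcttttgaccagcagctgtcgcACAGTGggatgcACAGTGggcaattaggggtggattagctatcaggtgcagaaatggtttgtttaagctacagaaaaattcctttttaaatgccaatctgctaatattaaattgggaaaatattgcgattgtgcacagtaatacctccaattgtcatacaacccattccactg
trx: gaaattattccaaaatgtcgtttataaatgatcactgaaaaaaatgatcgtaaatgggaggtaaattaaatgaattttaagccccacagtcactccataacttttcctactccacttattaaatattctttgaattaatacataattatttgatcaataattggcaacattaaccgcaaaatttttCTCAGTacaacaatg
ush: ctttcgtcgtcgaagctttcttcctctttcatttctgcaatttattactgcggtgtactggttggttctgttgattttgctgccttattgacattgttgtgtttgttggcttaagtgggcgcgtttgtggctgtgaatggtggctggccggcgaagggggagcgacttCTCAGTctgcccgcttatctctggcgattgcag
Hr4: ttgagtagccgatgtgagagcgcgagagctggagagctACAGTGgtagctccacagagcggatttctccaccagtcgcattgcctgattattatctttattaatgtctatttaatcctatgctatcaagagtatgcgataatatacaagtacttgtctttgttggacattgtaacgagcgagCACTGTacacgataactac
The summit in CHES-1-like held 4 copies of ACAGTG, the most of any member, and those in CG32264 and Hr4 held 2 each. The aop summit held both words.

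The words ACAGTG and ACTGAG were each more than 3 times as frequent at far intronic summits as in DNA 1000 bp away. ACAGTG occurred in 143 of the 627 summit windows (22.8%) and in 46 flanking windows (7.34%), a ratio of 3.11 (adjusted exact McNemar p = 5.84e-11). ACTGAG occurred in 76 (12.1%) and 24 (3.83%), with a ratio of 3.17 and an adjusted exact p of 4.89e-05. Every word of 6 bases was tested together with its reverse complement, and 30 of them (1.44%) were more frequent and 21 (1.01%) less frequent at summits after Benjamini-Hochberg adjustment, against 365 words at an unadjusted p under 0.05. Of the 10 words with the highest ratios, the next were AGTGTA (2.56), GTGCAC (2.52), CAGTGC (2.30), ACTGTA (2.18), CACTGA (2.13), ACACTG (2.00), CAGTGG (1.92) and CTGAAA (1.86), each with an adjusted exact p of at most 0.00688. Of the 30 words, 8 held CAGT or its reverse complement ACTG, and 6 were made of A and T alone. The other 16 included TAAACA (ratio 1.56, adjusted exact McNemar p = 0.00233), picked after its value was seen. Its letters are shared by both forkhead words tested below. Overlapping words share windows and are not independent of each other.

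The words were not confined to introns. All but 1 of the 30 words also had a ratio above 1 in the 269 far intergenic peaks, which the location rule leaves out. There ACAGTG stood in 16.7% of summits and 6.32% of flanks, and ACTGAG in 14.9% and 6.69%. In the 513 near intronic peaks ACAGTG stood in 23.8% of summits and 10.1% of flanks, but ACTGAG in 7.60% of summits and 8.19% of flanks. At promoter peaks ACAGTG stood in 16.1% of summits and 8.29% of flanks, and ACTGAG in 6.70% and 5.53%. The pooled list, which includes background, had 6529 far intronic entries that stayed below the threshold. They held ACAGTG in 10.49% of summit windows and 7.86% of flanks, and ACTGAG in 7.54% and 6.42%. The members' own flank share of ACTGAG, 3.83%, was the lowest of these classes, which raises its ratio. Grouping the words by their shared letters CAGTG, and the counts that follow, were chosen after the words had been seen, so they carry no test. Either ACAGTG or ACTGAG stood in 209 members (33.3%, 95% exact Clopper-Pearson interval 29.6 to 37.2), against 69 of their flanks (11.0%). Among the 209 strongest members the share was 39.2% (32.6 to 46.2), and among the 209 weakest 29.7% (23.6 to 36.4), so the intervals overlap. The 5 letters CAGTG stood in 316 of the 627 summits (50.4%) and 168 flanks (26.8%), and in 17 of the 20 strongest members. Their share was 52.4% at near intronic, 52.8% at far intergenic and 47.3% at promoter summits. By arm, the share of members ran from 39.5% on 2R (32.5% of flanks) to 56.25% on 2L (21.4% of flanks). Of the 143 members with ACAGTG, 124 held 1 copy and 19 held 2 or more.

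ACAGTG lay mostly to the sides of the summit rather than on it. In windows of 51 bp, 26 of the 627 members (4.15%) had it at the summit, 48 (7.66%) at 100 bp upstream in genome order and 44 (7.02%) at 100 bp downstream. At 250 bp the shares were 2.23% and 1.91%. The base composition changed over the same distance. The mean G+C content was 35.5% at the summit and rose to 43.4% at 200 bp on the lower-coordinate side and 43.7% on the other. Below-threshold entries had 41.5% at the summit and held ACAGTG there in 2.74%. Over the 201-bp windows the median G+C content of members was 36.8%, against 40.3% in the flanks, and 226 of the 627 summits (36.0%) were richer in G+C than their flank. The part of base composition in the word counts was not tested.

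**Figure D1:**
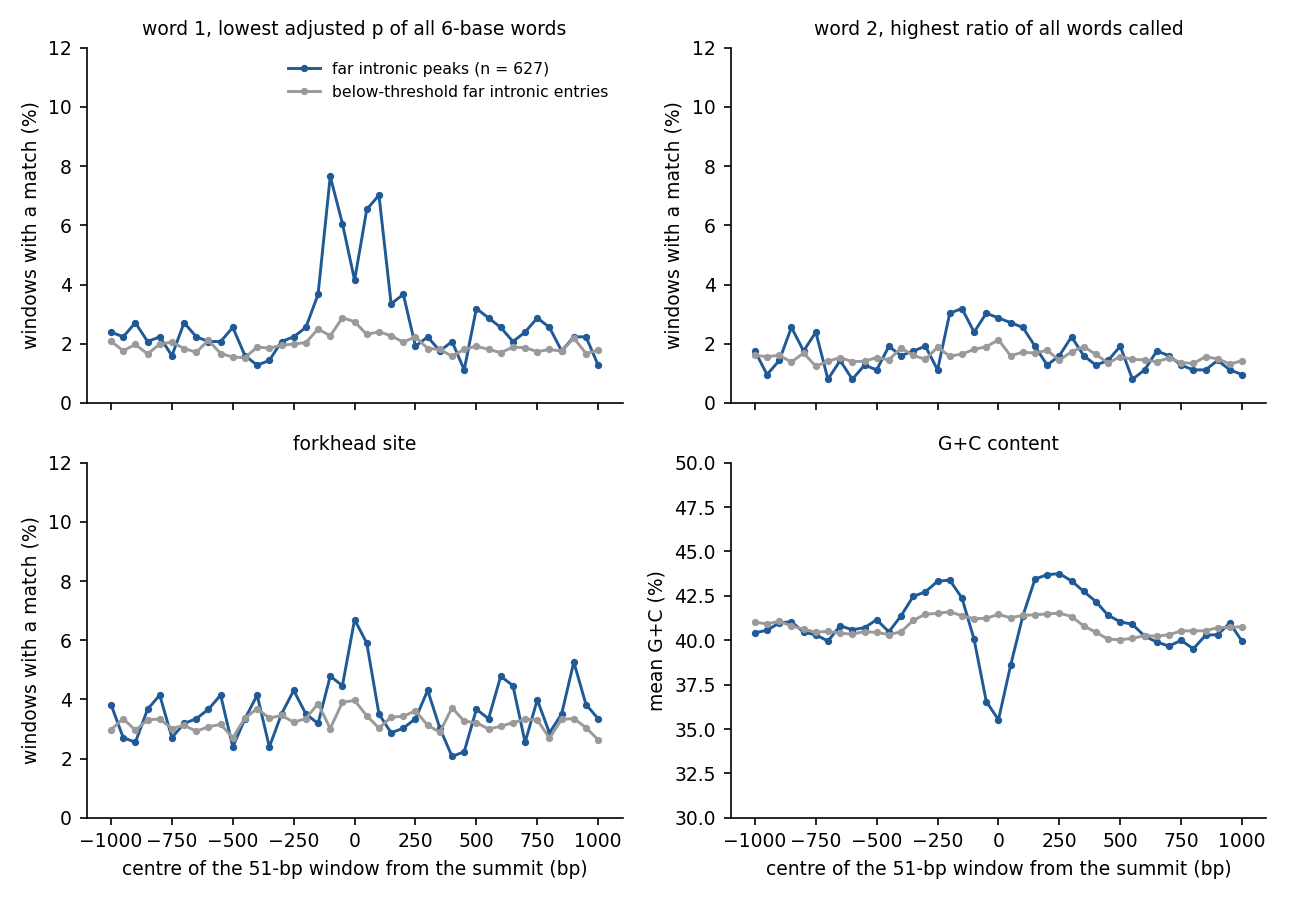
Percentage of 51-bp windows that hold word 1 (ACAGTG), word 2 (ACTGAG) or a forkhead site, and mean G+C content in percent, against the distance of the window's centre from the summit in bp, for the 627 far intronic peaks (blue) and the 6529 far intronic entries below the threshold (grey). ACAGTG reached 7.66% and 7.02% at 100 bp on either side and 4.15% at the summit, where G+C content was lowest at 35.5%.

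The forkhead site itself was more frequent at far intronic summits, by a smaller factor. GTAAACA or ATAAACA, on either strand, stood in 126 summits (20.1%) and 84 flanks (13.4%), 1.5 times as often (adjusted exact McNemar p = 0.0143). The same letters reversed without complementing, ACAAATG or ACAAATA, have equal base composition and stood in 19.8% and 16.3% (ratio 1.22, adjusted exact p = 0.333). The call did not hold with the flank taken on the other side, where the forkhead ratio was 1.14 (adjusted exact p = 0.570) and the reversed letters passed instead (1.57, adjusted p = 0.0139). It also ended without replicate 3, where the ratio was 1.21 (adjusted exact p = 0.385) and the reversed letters passed (1.41, adjusted exact p = 0.0363). Without replicate 2 both passed, at 1.49 for the site (adjusted exact p = 0.0324) and 1.43 for the reversed letters (adjusted exact p = 0.0380). Among the 596 members found in both replicate lists the ratio was 1.51 (adjusted exact p = 0.0164) when each kept its flank, and 1.36 (adjusted exact p = 0.0774) when the alternation of sides was started anew. GACGC went the other way. It stood in 60 summits (9.57%) and 106 flanks (16.9%), 0.566 times as often (adjusted exact p = 0.00387), and its call ended in 5 of 9 alternatives, with a ratio of 1.01 in windows of 250 bp on each side.

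The strongest member in aos held 2 forkhead sites, in capitals here, in the 201 bp at chr3L:16480452-16480652.
aos: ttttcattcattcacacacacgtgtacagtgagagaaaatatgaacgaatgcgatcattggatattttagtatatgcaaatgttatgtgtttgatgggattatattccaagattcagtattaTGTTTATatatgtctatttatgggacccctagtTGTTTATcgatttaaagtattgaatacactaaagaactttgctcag
aos encodes a secreted inhibitor of the EGF receptor, and this summit, which also lies inside CG33158, held 1 GAGA site and 1 ACAGTG as well. The aos summit, ranked 21 by signal, was picked for its 2 forkhead sites and does not stand for the strong members as a set. The members ranked 1 to 3, in Tlk, CG32486 and Raf, held 0 forkhead sites each, and the one in S, ranked 18, held 1.

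Of the other 14 motifs, 2 passed against the flanks, and neither reversed control did. GAGAGA, bound by the GAGA factor Trl and by Clamp, stood in 13.9% of summits and 8.45% of flanks (ratio 1.64, adjusted exact p = 0.0188). This call ended with windows of 50 bp, the other flank, a flank 500 bp away (1.19), without replicate 3 (1.13) and among members of both replicate lists that kept their flanks (1.52). GGAATG, the site of Scalloped, stood in 6.22% and 10.7% (0.582, adjusted exact p = 0.0274). Its call ended in 5 of 9 alternatives.

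Far intronic summits held few of the core promoter motifs, as did below-threshold far intronic entries and far intergenic peaks. These motifs belong to promoters, which the location rule leaves out, so their difference from promoter peaks is largely set by the rule. TATCGATA, the DRE bound by DREF, stood in 2 of 627 members (0.319%) and 301 of 2895 promoter peaks (10.4%, adjusted Fisher's exact p = 2.00e-22). GGTCACACT, the core of Motif 1, stood in 0 members, which allows a share of up to 0.478%, and in 193 promoter peaks (6.67%, adjusted exact p = 5.41e-16). Both differences kept their call in all 5 alternatives tried. DRE stood in 0.505% of below-threshold far intronic entries and 1.12% of far intergenic peaks, and Motif 1 in 0.245% and 0.372%, with no difference from members detected (adjusted exact p from 0.326 to 0.879). Members held more GAGA sites (odds ratio 1.69, adjusted exact p = 0.00178) and GATA sites, AGATAA or TGATAA (29.98% against 22.8%, odds ratio 1.45, adjusted p = 0.00182), and fewer GACGC sites (0.482, adjusted p = 1.40e-06). The reversed controls differed from promoter peaks as well, with odds ratios of 1.42 for the forkhead letters and 0.729 for the GACGC letters (adjusted exact p = 0.0117 for both). A difference of the forkhead site from promoter peaks was not detected (20.1% against 18.1%, odds ratio 1.14, adjusted exact p = 0.450). It was more frequent than in far intergenic peaks (11.9%, odds ratio 1.86, adjusted exact p = 0.0134). The below-threshold far intronic entries share the location class of the members, but not their distribution over TSS distance. They come from a list of peaks and background. In it 21.0% of far intronic entries, members included, had a q-value under 0.05, so most of these entries did not. Their median G+C content was 40.8%, against 36.8% in members, and its part was not tested. Against these entries, members held more forkhead (14.7% there, odds ratio 1.45, adjusted exact p = 0.00446), GATA (1.37, adjusted p = 0.00524), GAGA (1.38, adjusted p = 0.0400) and Stat92E sites, TTCNNNGAA (1.49, adjusted p = 0.0495). They held fewer GACGC (0.604, adjusted exact p = 0.00182) and Scalloped sites (0.597, adjusted p = 0.0107). The reversed letters did not pass here, with odds ratios of 1.23 for forkhead (adjusted exact p = 0.149) and 0.903 for GACGC (adjusted exact p = 0.511). Of 5 alternatives, the call against these entries ended in 4 for Stat92E, in 3 for GACGC and in 2 each for forkhead, GATA, GAGA and Scalloped sites. The forkhead call against far intergenic peaks ended in 2, and the GATA call against promoter peaks in 2. In all, 17 of 54 comparisons passed, and 6 did when only peaks above the median signal were used.

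Far intronic peaks had a lower median signal than promoter peaks, and far intronic entries reached the thresholded list less often. Signals spanned 84.3 to 882. The median was 121, against medians of 133 for promoter peaks, 129 for near intronic peaks, 119 for far intergenic peaks and 130 for all. Among the 920 strongest peaks there were 95 of them (15.2%, 95% exact interval 12.4 to 18.2) and 623 promoter peaks (21.5%, 20.04 to 23.1). The pooled list of both replicates was deposited as peaks and background. It held 7156 far intronic entries, 1506 of them (21.0%) with a q-value under 0.05. Of the 7156, 627 (8.76%, 8.12 to 9.44) were in the thresholded list. Of all 30000 pooled entries 15.3% were, of promoter entries 29.1% and of far intergenic entries 7.98%.

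The 2 replicates shared nearly all far intronic peaks. Summits within 100 bp were found in both replicate lists for 596 of the 627 (95.1%), close to the 94% of all thresholded peaks. Another 20 had a match only in replicate 2 and 9 only in replicate 3, while 2 had no match. This share is high by construction, because the replicate lists were inputs to the thresholded list. Among the 4599 best entries of each replicate list, 413 members (65.9%) were present in both, against 69.4% of all peaks and 71.2% of promoter peaks (odds ratio 0.780, adjusted Fisher's exact p = 0.0553). The share fell with strength, from 95 of 95 members among the 920 strongest peaks to 17 of 146 (11.6%) among the weakest. The same steps held 99.7% and 13.1% of promoter peaks. The median member ranked 2338.5 in replicate 2 and 2780.5 in replicate 3, and 355 members had the better rank in replicate 2, against 240 in replicate 3. Replicate summits lay a median of 25 bp apart.

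**Figure D2:**
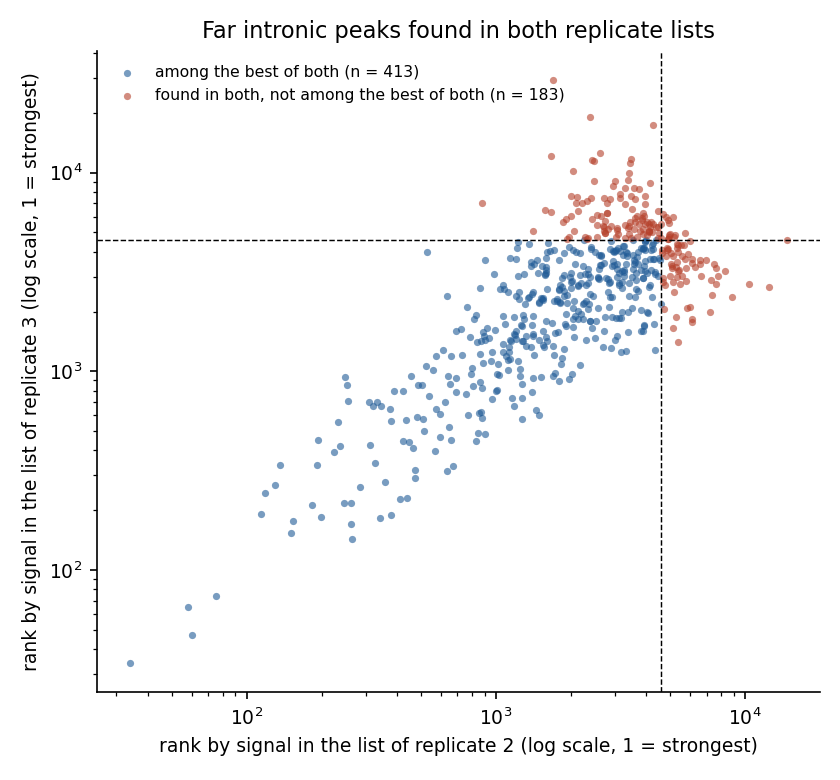
Rank of each far intronic peak by signal in the list of replicate 2 (horizontal, log scale) against its rank in the list of replicate 3 (vertical, log scale), for the 596 found in both. Dashed lines mark rank 4599. The 413 peaks in blue lie within it in both lists, and the strongest member ranked 34 in both.

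Within the eligible DNA, far intronic peaks thinned out with distance from TSSs and from the first to the later introns of their host genes. Sequence that met the location rule came to 42.7 Mb, 31.2% of the arms. Density fell from 27.6 peaks per Mb (95% exact Poisson interval 23.1 to 32.8) at 2000 to 3000 bp from a TSS, through 23.8, 18.9 and 9.71, to 3.27 (2.30 to 4.51) beyond 20000 bp. The median distance was 5141 bp, the longest 86615 bp, and 123 members lay over 10000 bp from a TSS. Entries below the threshold thinned out too, from 242 to 56.1 per Mb, and the thresholded share of entries fell from 10.3% to 5.51%. First introns held 241 members at 26.5 per Mb (23.3 to 30.1) and later introns 386 at 11.5 (10.4 to 12.7). The rate ratio was 2.31 (1.96 to 2.72, exact conditional binomial p = 1.42e-22), and it lay between 2.24 and 2.83 in the 6 alternatives. Below-threshold entries had 222 and 134 per Mb in the same introns. The part of TSS distance in the intron order was not tested beyond the cutoff, and over 5000 bp from a TSS the ratio was 2.66.

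**Figure D3:**
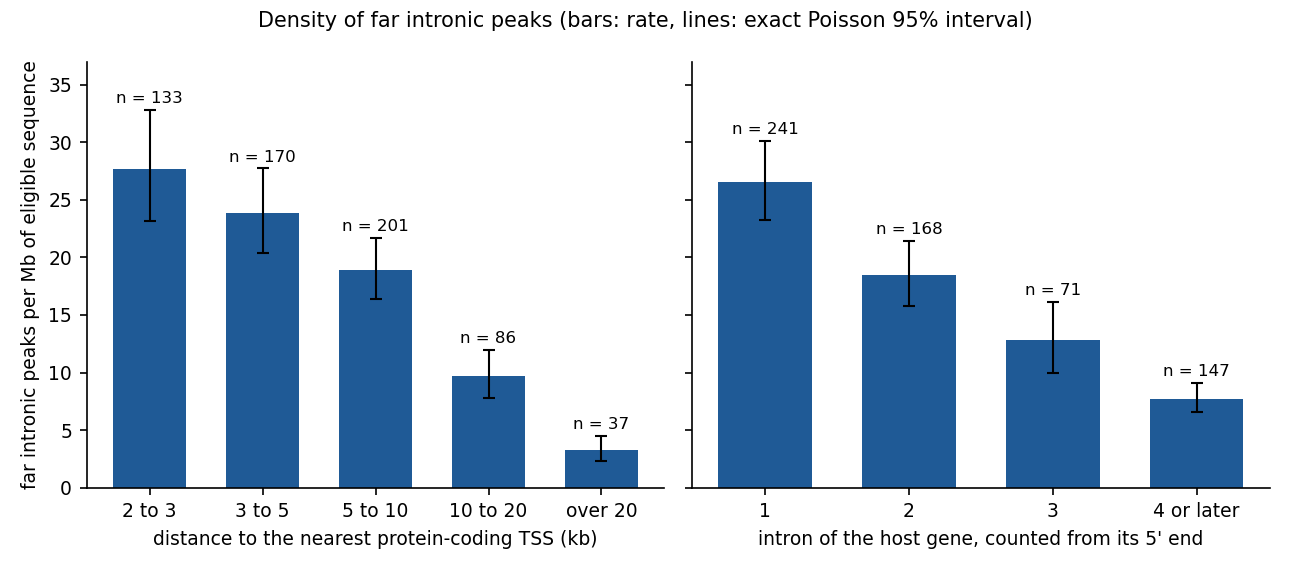
Far intronic peaks per Mb of eligible sequence (bars, vertical axis from 0) by distance to the nearest protein-coding TSS in kb (left) and by intron of the host gene (right), with exact Poisson 95% intervals and numbers of peaks. Density fell from 27.6 to 3.27 per Mb with distance and from 26.5 in the first to 7.74 in the fourth and later introns.

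Density varied among the arms, without a test. X held 154 members at 20.3 per Mb (17.2 to 23.7), arm 3R 123 at 10.7 (8.93 to 12.8), and 2L, 2R and 3L between 14.9 and 16.7. Leaving out 50 kb on either side of CHES-1-like, which lies on X, gave 19.3 (16.3 to 22.7) on X, against 14.0 (12.7 to 15.3) on the 4 large autosomal arms together. Chromosome 4 held 0 members in 0.428 Mb, which allows up to 8.62 per Mb. Members sat in introns with a median length of 12037 bp, and a median of 2806 bp from the nearest exon. The location rule favours long introns, and these medians were not compared with the eligible sequence. Another thresholded summit lay within 2000 bp of 184 members (29.3%), against 54.6% of near intronic and 32.2% of promoter peaks.

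The 20 strongest far intronic peaks all lay within the first 393 ranks of both replicate lists. The top member, in the fourth intron of Tlk, the Tousled-like kinase, had its summit at 3742236 on X, 2339 bp from a TSS. Its signal was 882, with 505 in replicate 2 and 379 in replicate 3, each on its own list's scale, and it ranked 34 in both. The next, in CG32486, had a signal of 713 and ranked 60 and 47. Raf, the kinase between Ras and MEK, followed with 687 and ranks of 58 and 65. All 3 kept nearly the same place in both replicates. Further members of the top 20 lay in upSET, a SET-domain chromatin protein gene (471, ranks 114 and 191), in an intron shared by the nucleosome remodeller Mi-2 and the elongation factor gene Su(Tpl) (451, ranks 151 and 153), in Pits (436, ranks 153 and 177) and in JIL-1, a histone H3 kinase gene (431, ranks 130 and 268). Gug, the Atrophin corepressor gene, had a peak of 414 with ranks of 136 and 338, and gpp, the Dot1 histone methyltransferase gene, one of 361 with ranks of 379 and 189, which lay 17258 bp from a TSS. The kinase gene mnb had one of 372 with ranks of 261 and 218. CG12769 (405) and CG34417 (405) also held one each. None of the 20 came from 1 replicate alone.

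Host genes numbered 390 of 4351 protein-coding genes with eligible sequence (8.96%). Of these, 247 held 1 member, 143 held 2 or more and 27 held 4 or more. The 27 hosted 126 members (20.1%). Hosts were long, with a median of 29.7 kb against 7.67 kb for eligible genes without a member. tara, which encodes a regulator of cell cycle and chromatin, held 9 members with signals from 85.1 to 219 in 34.7 kb. Of these 9, 3 were missing from 1 replicate list or both. sbb, a corepressor gene, held 8 from 91.3 to 225. Raf, Eip75B and CHES-1-like held 7 each. mam, which encodes the coactivator of Notch, and kirre, an adhesion gene of myoblast fusion, held 6 each. Mi-2 and simj, which encode subunits of the same nucleosome remodelling and deacetylase complex, held 5 each, as did Su(Tpl), which shares its 5 with Mi-2, Hr4 and ush. Another 15 genes held 4, among them Tlk, Eip63E, crp, mew, Snoo, pnt, shn, RapGAP1, CG12535, RhoGAP19D, CG1677, cv-c and ftz-f1, with CG46467 and Glut4EF sharing the same 4.

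**Figure D4:**
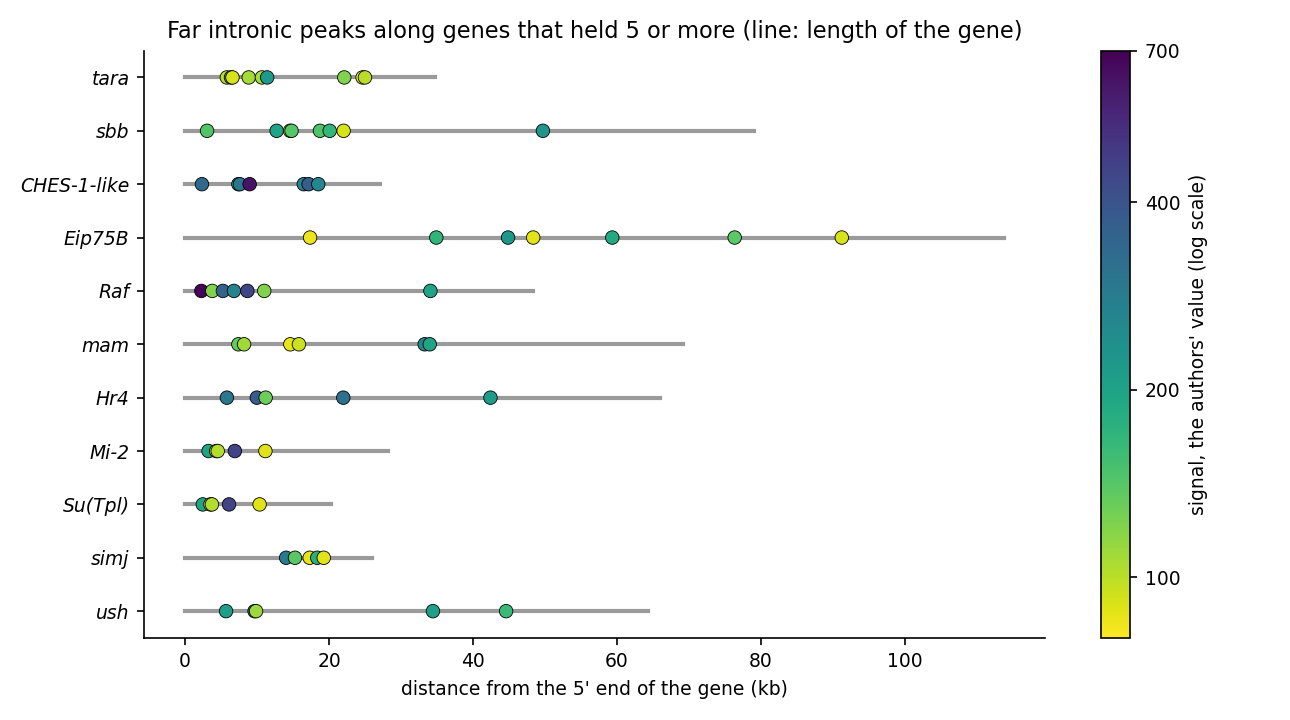
Position of far intronic peaks along the genes that held 5 or more, in kb from the gene's 5' end, coloured by signal (log scale); grey lines show the gene's length, and kirre, 394 kb long with 6 peaks, is left out for scale. In Raf, 6 of 7 peaks lie within 11.0 kb of the 5' end, and Mi-2 and Su(Tpl) overlap and share their peaks.

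Among the signalling lists, EGF receptor and Ras signalling had the highest share of host genes. The pathway runs from secreted ligands through the receptor, Ras and Raf to the MAP kinase, and ends on the ETS factors pnt and aop and the repressor cic. Of its 19 eligible genes 11 were hosts, with 25 members at 8.57 per 100 kb of eligible sequence. Over all eligible genes the share was 8.96% and the density 1.48 per 100 kb. The listed genes had longer eligible stretches, with a median of 13.05 kb against 1.59 kb, and among all eligible genes with 10 to 20 kb, 21.3% were hosts. Among ligands and their handling, vn, a neuregulin-like ligand gene, held 1 member of 213 (ranks 727 and 1203), and S, needed to deliver the ligand Spitz, held 3, the best of 367 (ranks 342 and 183). Egfr itself held 1 of 99.5 (ranks 3352 and 3935), near the lower end. In Raf the 7 members had signals of 687, 445, 354, 267, 199, 121 and 120, all in the second intron, and 6 of them were among the best of both replicates. aop, a repressor of the ETS family, held 2, of 418 (ranks 199 and 186) and 97.6. pnt, the activating ETS factor, held 4 with a best of 184, 1 of which was absent from replicate 3. Of genes that restrain the pathway, aos held 1 of 360 (ranks 193 and 454), cic 2 with a best of 189, RasGAP1 1 of 144 and sty, the Sprouty gene, 2 with a best of 112. edl, an antagonist of both ETS factors, held 1 of 88.8. The pathway was not covered throughout. rl, the MAP kinase gene, with 44.9 kb of eligible sequence, ru, with 13.05 kb, and csw, with 6.27 kb, held 0. Either replicate alone gave 12 and 10 hosts in place of 11.

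**Figure D5:**
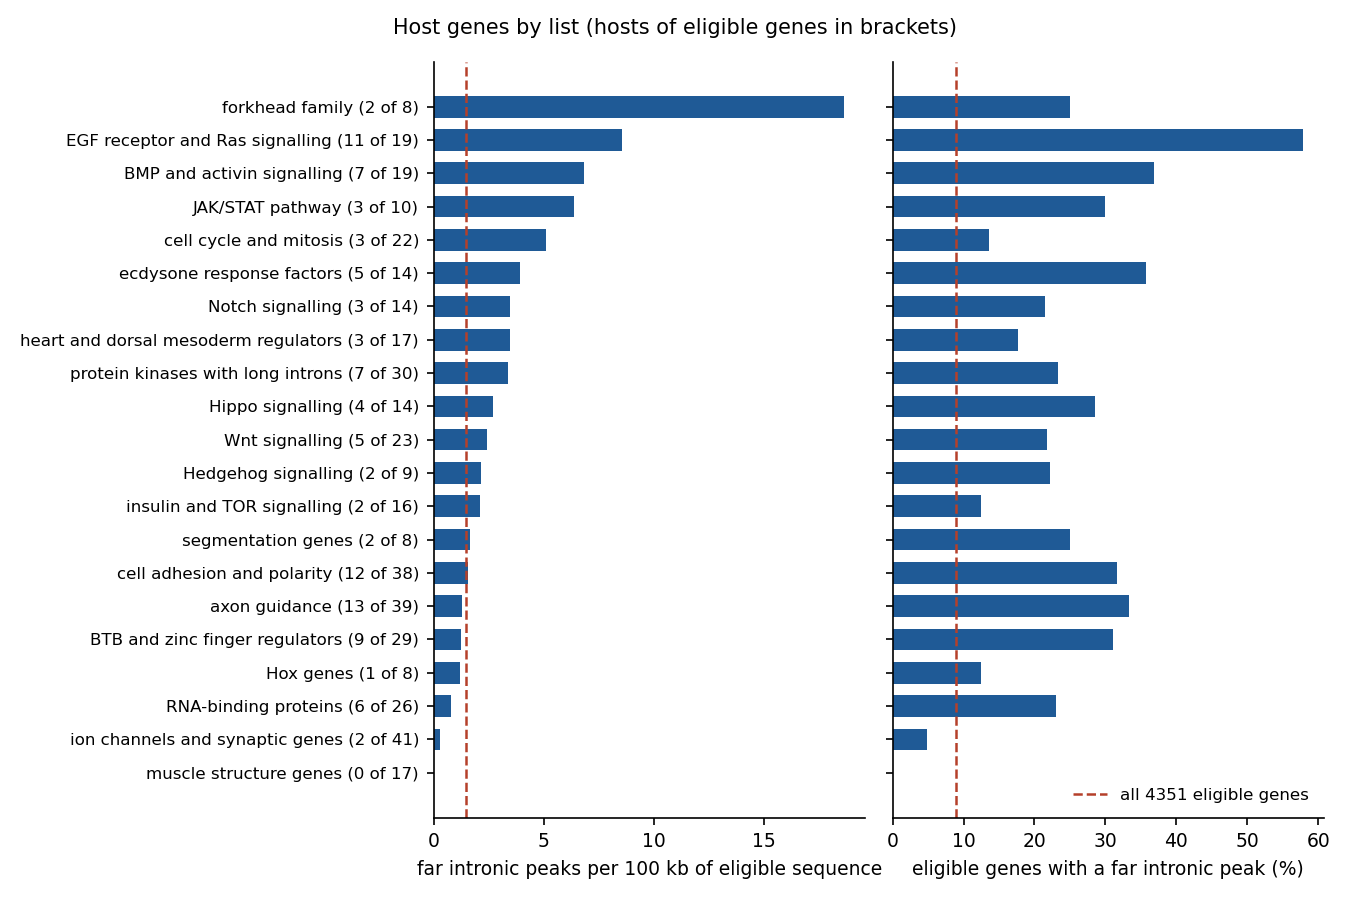
Far intronic peaks per 100 kb of eligible sequence (left) and percentage of eligible genes that held 1 or more (right), by gene list, with hosts of eligible genes in brackets. Dashed lines mark all 4351 eligible genes, at 1.48 per 100 kb and 8.96%; EGF receptor and Ras signalling reached 8.57 and 57.9%, and muscle structure genes 0.

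Ecdysone response genes, which encode nuclear receptors and their targets in the hormone cascade of moulting, held 19 members in 5 of 14 eligible genes (35.7%), at 3.93 per 100 kb with a median of 32.1 kb per gene. Among all eligible genes with 20 to 50 kb, 26.8% were hosts at 1.66 members per 100 kb. Hr3 held 2, the best of 388 (ranks 263 and 171), in an intron where CG46321 and CG12912 also lie. Hr4 held 5 with signals of 380, 318, 297, 213 and 131, all among the best of both replicates. EcR, the hormone's receptor, held 1 of 294 (ranks 425 and 448). Eip75B held 7, spread over 73.9 kb, from 85.1 to 222, of which 4 were among the best of both replicates. ftz-f1 held 4 between 98.1 and 120. br, Eip74EF, Eip93F and Hr38, each with over 20 kb of eligible sequence, held 0.

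BMP and activin signalling had 7 hosts of 19 eligible genes (36.8%) and 6.83 members per 100 kb, with a median of 4.35 kb per gene. Over all eligible genes the share was 8.96% at 1.48 per 100 kb. Among those with 2 to 5 kb it was 8.16% at 2.83 per 100 kb. The 7 hosts each had over 10 kb, and among all eligible genes with 10 to 20 kb the share was 21.3%. Dad, the inhibitory Smad gene, held 3, the best of 293 (ranks 320 and 673), and cv-2, a BMP-binding protein gene, held 3, the best of 237 (ranks 651 and 859). shn, a zinc finger partner of the Smads, held 4 with a best of 178. dpp, the ligand gene, held 1 of 171 (ranks 1413 and 1504). In the JAK/STAT pathway 3 of 10 eligible genes (30%) were hosts at 6.39 per 100 kb, with a median of 2.49 kb per gene. Socs36E, a feedback inhibitor, held 3 with a best of 224 (ranks 610 and 1279), Ptp61F, a phosphatase that restrains the pathway, held 3 with a best of 145, and ken, a transcriptional repressor gene, held 1 of 230 (ranks 639 and 949). Stat92E, with 8.78 kb of eligible sequence, the receptor gene dome, with 2.27 kb, and the kinase gene hop, with 1.84 kb, held 0.

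In the other signalling lists between 12.5% and 28.6% of eligible genes were hosts. Over all eligible genes the share was 8.96%, and it rose with eligible length. It was 0.521% up to 2 kb, 8.16% at 2 to 5 kb and 14.8% at 5 to 10 kb. From 10 to 20 kb it was 21.3%, and from 20 to 50 kb 26.8%. Median lengths were 11.2 kb for Notch, 5.45 for Wnt, 8.20 for Hippo, 3.54 for Hedgehog and 1.41 for insulin. They were 11.6 kb for segmentation, 17.6 for Hox, 10.2 for kinases and 21.7 for BTB genes. Notch signalling had 3 of 14, with N, the receptor gene, at 300 (ranks 309 and 702) and mam at 257. Wnt signalling had 5 of 23, led by fz at 360 and dlp, a glypican gene, whose 3 members reached 242, while fz2, with 78.4 kb of eligible sequence, held 0. Hippo signalling had 4 of 14, with ex, an upstream regulator, at 198 and kibra at 145. Hedgehog signalling had 2 of 9, ptc, the receptor gene, at 120 and dally at 94.6. Insulin and TOR signalling had 2 of 16, InR, the insulin receptor gene, at 339 (ranks 440 and 230) and S6k at 87.5. Segmentation genes had 2 of 8, cad at 151 and nkd at 118, and Hox genes 1 of 8, Antp, with 3 members up to 134. Protein kinases with long introns had 7 of 30, led by mnb and by for, the cGMP-dependent kinase gene, at 338 (ranks 411 and 228). BTB and zinc finger regulators had 9 of 29, led by ken at 230 and luna at 149, at a density of 1.26 per 100 kb.

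The list of ion channel and synaptic genes held the fewest members for its length among lists with a host. Over all eligible genes 8.96% were hosts at 1.48 members per 100 kb. Among those with 20 to 50 kb, 26.8% were hosts at 1.66 per 100 kb. Median lengths were 33.7 kb for ion channel and synaptic genes and 20.9 kb for RNA-binding proteins. They were 23.8 kb for axon guidance and 21.0 kb for cell adhesion and polarity. Ion channel and synaptic genes, with 1741 kb of eligible sequence, had 2 hosts of 41 and 0.287 members per 100 kb. Both hosts, dnc, a cAMP phosphodiesterase gene (best 200), and DIP-alpha, a synaptic recognition gene (best 109), act in neurons without being channels. RNA-binding proteins had 6 hosts of 26 at 0.788 per 100 kb, with shep at 200.3 and pum at 198. Axon guidance had 13 of 39 at 1.27 per 100 kb, with ena, an actin regulator, at 282 and sli, the ligand of Robo receptors, at 163. Cell adhesion and polarity had 12 of 38 at 1.57, with kirre at 245 and scrib at 224. Cell cycle genes had little eligible sequence, 58.6 kb in 22 genes, and 3 hosts, Cdk4, grp and E2f1. Muscle structure genes had 0 hosts of 17 in 171 kb, and 1 with replicate 3 alone. Their median length was 6.28 kb, and among all eligible genes with 5 to 10 kb 14.8% were hosts. Of cytosolic ribosomal protein genes, only 2 had any eligible sequence, and neither was a host. These counts describe the lists and carry no test.

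CHES-1-like, the tagged gene, held 7 far intronic peaks, at 627, 368, 336, 299, 267, 258 and 177, in 7.87 kb of eligible sequence, the first 6 of them among the 55 strongest members. The number of copies of this locus in the transgenic line was not given in the sources used here, and its part in these signals was not tested. The strongest, 3709 bp from a TSS, ranked 75 in replicate 2 and 74 in replicate 3, with signals of 359 and 262. All 7 were among the best of both replicates. jumu held 2, at 162 and 141, only 211 bp apart. The stronger was absent from the list of replicate 2 and ranked 1622 in replicate 3, and the other ranked 1226 and 4485. Of the other 6 forkhead genes with eligible sequence, among them foxo with 24.8 kb, 0 were hosts. fz held 3. The strongest, in its first intron and 25289 bp from the nearest TSS, ranked 224 and 393, and the weaker ones, at 141 and 97.3, ranked 1932 and 2413, and 2723 and 7489. polo held 0, and its 1 thresholded peak lay at the promoter. Among heart and dorsal mesoderm regulators, 3 of 17 eligible genes (17.6%) were hosts, with a median of 12.4 kb of eligible sequence. The share was 8.96% over all eligible genes and 21.3% over those with 10 to 20 kb. ush, a cofactor of GATA factors, held 5 from 110 to 324, Mef2 held 3 with a best of 283 (ranks 674 and 334), and how held 1 of 163. pnr, with 6.46 kb of eligible sequence, and tin, with 0.395 kb, held 0.

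More than 50% of the host genes were also bound at their own TSS. Of the 390 hosts 213 (54.6%) had a thresholded peak within 500 bp of a TSS, against 1247 of 3961 eligible genes without a member (31.5%). Genes with more TSSs have more places to be bound. The shares were 49.3% against 26.9% with 1 TSS and 73.7% against 57.3% with 5 or more. By eligible length they were, for example, 42.4% against 22.3% at 10 to 20 kb. The part of TSS number and of eligible length in the difference was not tested. In 111 of the 213 the best far intronic peak was stronger than the best promoter peak. In Raf the values were 687 and 112, and in Tlk 882 and 122. In CHES-1-like and Eip75B the promoter was stronger, with 682 against 627 and 405 against 222. No test was run on these shares, which rest on genes of unequal length. Hr4 and kirre had far intronic peaks and no promoter peak.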

How the data were processed

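Chromatin immunoprecipitation was sequenced in 2 biological replicates of 1 group. Per the deposited file manifests, a control entered every list, the pooled list joins both libraries, and the irreproducible discovery rate procedure made the thresholded list out of the pooled and replicate lists. The aligner and caller, like the rate limit, were not given in the sources used here. Each deposited line holds a signal value, used as a score to rank peaks within a list, a −log10 q-value and a summit offset. Lists on dm3 were not used.

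Summits of the dm6 lists were placed with Ensembl release 115 (13968 protein-coding genes), and sequence came from the release 6 genome of RefSeq. Models of transposable elements did not count as genes, and 1 member lies in one. Any protein-coding gene that spans a summit is a host, and intron order follows the merged exons of the shortest host. Windows reached 100 bp to each side of the summit, with flanks centred 1000 bp away on sides that alternate in list order, anew in each subset unless stated. Replicate summits within 100 bp were matched.

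Tests were two-sided: exact McNemar against flanks, Fisher's exact against other peaks, exact conditional binomial for densities, with Benjamini-Hochberg adjustment at 0.05 over 18 motifs, 54 motif comparisons, all words and 6 replicate comparisons. Peaks are not independent replicates, so p-values describe these lists. The statistics were tested on simulated sequences with a planted word. The members, gene lists and motifs were chosen with earlier results of these data known. For 22 older gene symbols, RefSeq synonyms were used. Named are hosts of the 20 strongest members, hosts of 4 or more, the 2 hosts with the strongest member in each of 22 lists, CHES-1-like, fz, jumu and polo, and up to 10 words or motifs past the threshold with the highest ratio. A further list is not reported here. Other genes and motifs named were chosen after their values were seen. Alternatives covered windows, flanks, TSS distance, matching, threshold and each replicate alone, with 5 more chosen after seeing the data. Tests used scipy 1.17.1 under Python 3.11.15, tables pandas 2.3.3 and numpy 2.4.6, and plots matplotlib 3.10.9.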

Additional observations from a re-analysis of the deposited data

How the results depend on the processing

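The number of far intronic peaks was 281 above the median signal of the list and 324 beyond 5000 bp from a TSS, where both rules are stricter by construction. With the 4599 best entries of 1 replicate it was 599 (replicate 3 alone) and 653 (replicate 2 alone), and 483 (77.0%) and 538 (85.8%) of the 627 members had a match there. Host genes fell from 390 to 211 above the median signal. The share found in both lists was 75.3% with summits within 50 bp, 99.8% within 250 bp and 65.9% among the best entries. The odds ratios of this share, none of which passed, turned to 0.971 (50 bp) and 0.780 (best entries) against promoter peaks, to 0.948 (best entries) against near intronic peaks and to 1.00 (best entries) against far intergenic peaks. It could not be computed with 1 replicate.

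Motifs called against flanks numbered 4, and 1 with windows of 50 bp, 2 with windows of 250 bp, 2 with the flank on the other side, 1 with a flank 500 bp away and 2 among members of both replicate lists that kept their flanks, the last chosen after seeing the data. The GACGC ratio turned to 1.01 at 250 bp, and its odds ratio against far intergenic peaks to 1.06 at 50 bp. Motif calls against other peaks fell from 17 to 6 above the median signal. More frequent words numbered 30, and 5 with windows of 50 bp, 4 of them the same words, and 10 to 54 with 1 replicate left out. Less frequent words numbered 21, and 2 with windows of 50 bp, 9 with windows of 250 bp, 9 with the other flank, and 2 to 43 with 1 replicate left out. The cause of these moves was not tested. ACTGAG kept its call in all 5 alternatives. ACAGTG kept it in 4, with a ratio of 2.38 (adjusted exact p = 0.0660) at 50 bp. Over the 10 words with the highest ratios, 32 of 50 alternative values kept their call, 18 did not and 0 reversed. The rate ratio of first to later introns kept its call in all 6. Without peaks within 50 kb of CHES-1-like there were 619 members. No paired analysis was possible because there is only 1 group. Unknown depth and the lack of an analysed control limit every signal, and 121 members ranked beyond 4599 in replicate 3 and 76 in replicate 2.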
